A study of Homo sapiens with 2 samples.

Results

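Expression of 8 genes of the core TGF-beta signal, taken by their symbols, was followed in HMC3 cells, which the paper describes as human microglial cells. The cells had received recombinant human periostin (rhPOSTN) or its vehicle PBS. The genes were chosen with earlier results of these data known. The members were the ligands TGFB1 and TGFB2, the receptors TGFBR1 and TGFBR2, and the intracellular SMAD2, SMAD3, SMAD4 and SMAD7, and all 8 were among the 11943 protein-coding genes of the tables. The rhPOSTN group held 3 libraries and the PBS group held 3, from cells of the same WT genotype kept in serum-containing medium. These libraries cover a single dose of rhPOSTN for a single duration, and nothing in the labels or methods gives the libraries of a group as separate cultures. The p-values then reflect no more than how these libraries differed from one another, and that spread may be technical. RNA-seq measured the mRNA of whole cultures and not the secreted, latent or active protein, and fewer cells with a transcript cannot be told apart from less of it per cell.

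TGF-beta is secreted as a latent dimer that stays bound to its own propeptide until integrins or proteases free it. The free ligand is bound by the type II receptor TGFBR2, which phosphorylates the type I receptor TGFBR1, and TGFBR1 in turn phosphorylates SMAD2 and SMAD3. These join SMAD4 and enter the nucleus, where the complex acts on target genes, among them the inhibitor SMAD7, which blocks and degrades the receptor. In brain, TGF-beta maintains the resting state of microglia, and in glioma it dampens T cells and favours regulatory T cells. Periostin, a secreted matrix protein that binds integrins, is itself a TGF-beta target in many connective tissue cells.

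Levels are FPKM, fragments scaled to transcript length and to the mapped fragments of the library, which are per length, so genes can be set side by side. Read counts cannot be had from FPKM, and the sequencing depth is therefore unknown. Differences are of log2(FPKM + 1), rhPOSTN minus PBS, from limma over 10982 genes with a mean of at least 1 FPKM in at least 1 group, with p-values adjusted by Benjamini-Hochberg over all of them and a threshold of 0.05. All 8 members passed that filter on low values.

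None of the 8 members passed the test in either direction, where 0.0182% of all genes tested did, the 2 genes TIGD1 and AL132780.3, both higher after rhPOSTN and named here only after their values were seen. By limma, 0 of 8 members had an unadjusted p below 0.05, against 3.21% of all genes tested. The groups overlapped in all 8 members, whereas they did not overlap in 11.7% of all genes tested. The log2 difference was above 0 for 6 of 8 members and for 63.5% of all genes tested, and its median was 0.18 over the members and 0.06 over all genes tested. Without PBS library 3 these medians were 0.03 over the members and 0.03 over all genes tested, and 0 of 8 members had an unadjusted limma p below 0.05, where 9.55% of all genes tested there did.

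PBS library 3 was unlike the rest. Across the 10982 genes its log2 values correlated with those of the other 5 at 0.913 to 0.940, and the 10 pairs among these at 0.973 to 0.983. Genes encoded by mitochondrial DNA held 1.48% of its summed FPKM, and 4.95% to 7.78% of that of the other libraries. It was the lowest of the 6 libraries in 5 members (TGFB2, TGFBR2, SMAD2, SMAD3 and SMAD4) and the highest in 1 (TGFB1), where it was the lowest in 44.4% and the highest in 30.1% of all genes tested. The members, their ratios and the medians of the pathway lists are therefore given with and without it.

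The cell type in the labels was checked against 22 markers of microglia and macrophages, of which 6 were listed. CD68, a lysosomal protein of phagocytes, had 9.45 to 14.2 FPKM after rhPOSTN and 4.57 to 16.2 FPKM after PBS, and TREM2, a receptor of myeloid cells, 2.91 to 3.84 FPKM after rhPOSTN and 3.12 to 3.56 FPKM after PBS. AIF1, PTPRC, ITGAM, CSF1R, CX3CR1 and P2RY12 were among the markers not listed, so they have no value here. Of 10 markers of fibroblasts and other mesenchymal cells 5 were listed, and their summed level was 320.3 to 368.4 FPKM after rhPOSTN and 334.8 to 530.0 FPKM after PBS. PBS library 3 held the top of that range, with COL1A1, the main chain of type I collagen, at 324.2 FPKM against 98.3 to 135.0 FPKM in the other libraries. The part of this in the members' values was not tested. These markers did not settle the cell type, which is taken from the labels and the paper.

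TGFB2 had the higher level of the ligands TGFB1 and TGFB2, while TGFB3, the other TGF-beta ligand, was not listed and has no value here. Neither TGFB1 nor TGFB2 differed between the groups beyond the spread of the libraries. TGFB2 (ENSG00000092969.11_2, chr1:218519577-218617961 on GRCh37, plus strand) had 27.0, 24.6 and 30.7 FPKM in rhPOSTN libraries 1, 2 and 3, against 26.6, 25.7 and 11.2 FPKM in PBS libraries 1, 2 and 3. The libraries lay close together apart from PBS library 3, which was low. The means were 27.5 ± 3.07 FPKM after rhPOSTN and 21.2 ± 8.63 FPKM after PBS (SD, n = 3 each), a log2 difference of 0.45 with a standard error of 0.32 and a 95% interval of -0.33 to 1.22 (limma, adjusted p = 0.951). Without PBS library 3 the difference was 0.06 with an interval of -0.20 to 0.32.

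TGFB1 encodes the ligand best known from immune cells. TGFB1 (ENSG00000105329.9_2, chr19:41807492-41859816, minus strand) had 6.55, 7.80 and 8.44 FPKM in the rhPOSTN libraries, against 8.30, 8.16 and 9.19 FPKM in the PBS libraries. Its lowest value was in rhPOSTN library 1 and its highest in PBS library 3, the reverse of TGFB2 in that library. On the log2 scale the difference was -0.16 with a standard error of 0.13 and an interval of -0.46 to 0.15 (limma, adjusted p = 0.951), and -0.11 without PBS library 3. The TGFB1 locus overlaps HNRNPUL1 and CCDC97 on the opposite strand, and since the use of strand in the abundance estimates is not given in the sources used here, reads in the shared parts may not be told apart. HNRNPUL1 had 27.3 to 33.3 FPKM after rhPOSTN and 27.9 to 32.4 FPKM after PBS, and CCDC97 had 4.66 to 4.74 FPKM after rhPOSTN and 3.83 to 5.21 FPKM after PBS.

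**Figure D1:**
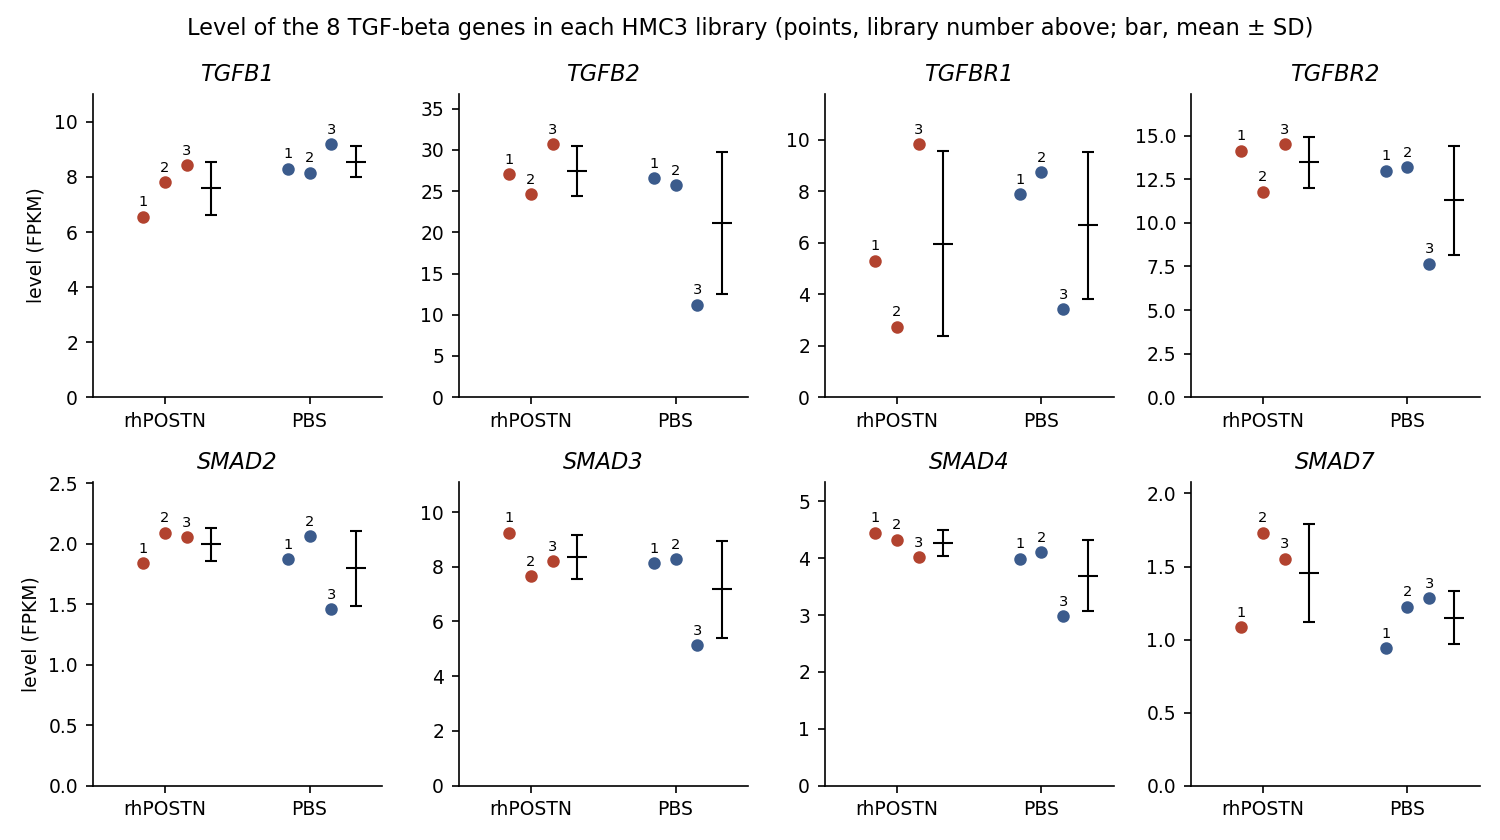
Level in FPKM (vertical axes, from 0, a scale of its own for each gene) of the 8 members in rhPOSTN libraries (red, left) and PBS libraries (blue, right), with each point a library and its number above it, and the mean ± SD beside the points. PBS library 3 is the lowest point for TGFB2, TGFBR2, SMAD2, SMAD3 and SMAD4, and the groups overlap in every panel.

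The promoters of the ligands are shown as a description of these paralogs, which lay apart in level. Whether the sequences bear on the levels or on the place of PBS library 3 was not tested. RefSeq (GRCh38.p14) gives 1 promoter window for each, of which the 250 bases up to the start are printed, with matches to the motifs searched in capitals. The TGFB1 window is chr19:41353923-41354172 on the minus strand, and the TGFB2 window is chr1:218345086-218345335 on the plus strand.
TGFB1: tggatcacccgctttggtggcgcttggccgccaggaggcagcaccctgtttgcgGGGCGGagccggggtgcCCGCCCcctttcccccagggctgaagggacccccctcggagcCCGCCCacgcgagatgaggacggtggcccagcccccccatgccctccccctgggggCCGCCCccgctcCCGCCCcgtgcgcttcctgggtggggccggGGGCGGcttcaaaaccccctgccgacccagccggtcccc
TGFB2: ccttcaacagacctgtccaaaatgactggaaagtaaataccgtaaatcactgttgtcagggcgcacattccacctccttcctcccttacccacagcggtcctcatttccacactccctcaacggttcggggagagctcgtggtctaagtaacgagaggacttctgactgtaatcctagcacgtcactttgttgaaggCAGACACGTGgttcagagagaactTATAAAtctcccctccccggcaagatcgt

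The TGFB1 window had 76.8% G and C and held 6 matches to the GC box GGGCGG, the core bound by Sp1, of which 4 read CCGCCC on the printed strand. It held no match to the TATA box TATAAA. The TGFB2 window had 50.4% G and C and no GC box, but had TATAAA at position -29 from the start, and at position -53 a CAGACA, the short element that SMAD3 and SMAD4 can bind, sharing 2 bases with the E box CACGTG at position -49. Both strands of 35116 RefSeq windows of this length were searched, and GGGCGG was in 42.6%, TATAAA in 10.7%, CAGACA in 13.6% and CACGTG in 6.34% of them. All 8 members had windows, 23 in total with overlaps among those of 1 gene, of which 10 held GGGCGG, 2 TATAAA, 4 CAGACA and 2 CACGTG. The palindromic SMAD element GTCTAGAC and the CRE TGACGTCA were in 0 of the 23, against 0.182% and 1.65% of all windows, and the AP-1 site TGACTCA was in 1 of the 23, against 4.2%. These matches are a description of the letters, and no binding was measured here.

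The receptors differed in how far their libraries spread. TGFBR2 (ENSG00000163513.17_2, chr3:30647994-30735634, plus strand), the ligand-binding type II receptor, had 14.1, 11.8 and 14.5 FPKM in the rhPOSTN libraries, against 13.0, 13.2 and 7.66 FPKM in the PBS libraries. As with TGFB2, PBS library 3 was the only low one. This gave a log2 difference of 0.27 with a standard error of 0.22 and an interval of -0.25 to 0.79 (limma, adjusted p = 0.951), and 0.03 with an interval of -0.23 to 0.30 without PBS library 3.

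TGFBR1 (ENSG00000106799.12_2, chr9:101866320-101916474, plus strand), the type I receptor kinase, was the most variable member. It had 5.31, 2.73 and 9.83 FPKM in the rhPOSTN libraries, against 7.88, 8.74 and 3.42 FPKM in the PBS libraries. The highest and the lowest of the 6 values were both in the rhPOSTN group, 3.60-fold apart, and 99.0% of all genes tested had a smaller range of log2(FPKM + 1) within that group. The log2 difference was -0.20 with a standard error of 0.46 and an interval of -1.29 to 0.90 (limma, adjusted p = 0.961). It was -0.55 without PBS library 3, 0.19 without rhPOSTN library 2 and 0.02 without PBS library 2, so its sign turned with the library left out.

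The SMADs that receive the signal had narrower spreads. SMAD3 (ENSG00000166949.15_3, chr15:67356101-67487533, plus strand), which binds DNA with SMAD4, had 9.25, 7.65 and 8.20 FPKM in the rhPOSTN libraries, against 8.13, 8.26 and 5.13 FPKM in the PBS libraries. PBS library 3 was below all others and PBS libraries 1 and 2 lay within the rhPOSTN range. Between the groups the log2 difference was 0.22 with a standard error of 0.19 (limma, adjusted p = 0.951), and 0.02 with an interval of -0.22 to 0.27 without PBS library 3.

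SMAD2 (ENSG00000175387.15_4, chr18:45335328-45457517, minus strand), the other receptor-regulated SMAD of this branch, had 1.84, 2.09 and 2.05 FPKM in the rhPOSTN libraries, against 1.87, 2.06 and 1.46 FPKM in the PBS libraries. The groups were nearly level apart from PBS library 3. Its log2 difference of 0.10, with a standard error of 0.12 (limma, adjusted p = 0.951), was the smallest in size of the 8, and it was 0.01 with an interval of -0.21 to 0.23 without PBS library 3.

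SMAD4 (ENSG00000141646.13_3, chr18:48554764-48611415, plus strand), the partner shared by the TGF-beta and BMP branches, had 4.45, 4.33 and 4.02 FPKM in the rhPOSTN libraries, against 3.99, 4.11 and 2.98 FPKM in the PBS libraries. PBS library 2 lay within the rhPOSTN range and the other PBS libraries below it. SMAD4 had a log2 difference of 0.17 with a standard error of 0.14 (limma, adjusted p = 0.951), and 0.06 with an interval of -0.15 to 0.27 without PBS library 3. On GENCODE 29, AC091551.1 overlaps SMAD4 on the same strand and was not among the genes listed. The same held for TGFB2-OT1 at TGFB2 and for MTCO2P2 and AC120349.2 at SMAD2.

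SMAD7 (ENSG00000101665.8_2, chr18:46446223-46477081, minus strand), the inhibitor that the pathway induces against itself, was low in every library. It had 1.08, 1.73 and 1.55 FPKM in the rhPOSTN libraries, against 0.941, 1.22 and 1.28 FPKM in the PBS libraries. Libraries 2 and 3 after rhPOSTN were above all PBS libraries, and rhPOSTN library 1 was within the PBS range. The log2 difference was 0.19 with a standard error of 0.14 and an interval of -0.15 to 0.52 (limma, adjusted p = 0.951). Without PBS library 3 it was 0.23 with an interval of -0.12 to 0.59.

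Exact two-sided permutation tests of the members gave p between 0.2 for SMAD4 and 0.8 for TGFBR1, where the smallest p that 3 libraries against 3 allow is 0.1. The intervals show which differences these libraries could have missed. With all 6 libraries the upper bound for TGFB2 was 1.22 on the log2 scale, and without PBS library 3 the intervals of TGFB2, TGFBR2, SMAD2, SMAD3 and SMAD4 ended between 0.23 and 0.32. TGFBR1 was bounded least, by -1.61 and 0.50 without PBS library 3.

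**Figure D2:**
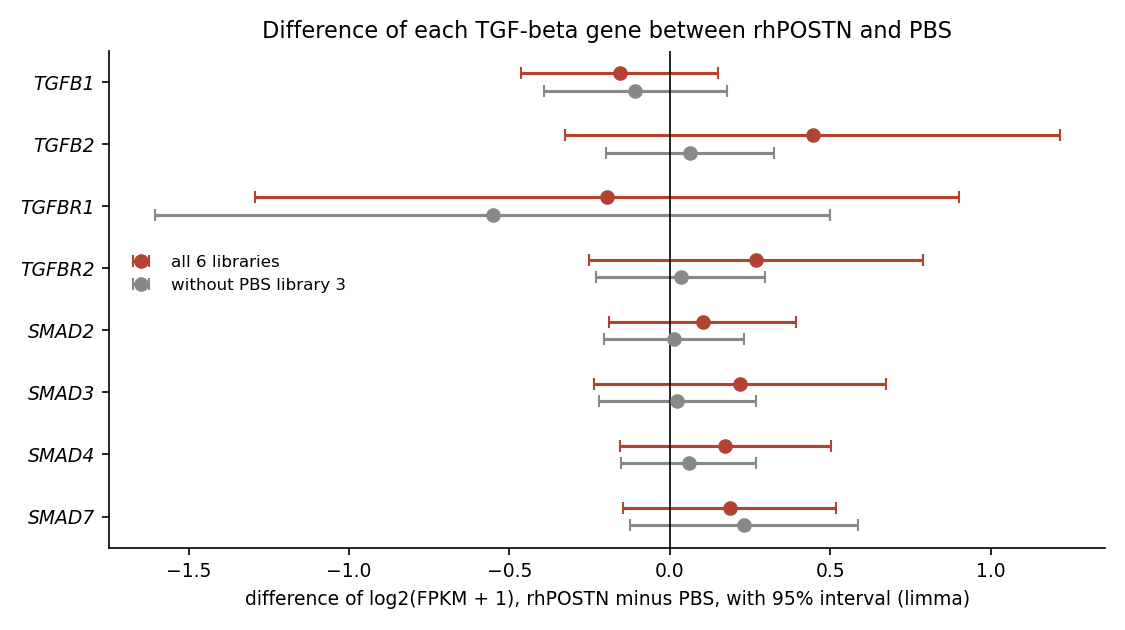
Difference of log2(FPKM + 1), rhPOSTN minus PBS (horizontal axis), of each member, with points for the limma estimate and bars for its 95% interval, over all 6 libraries (red) and without PBS library 3 (grey). Every interval spans 0, and those of TGFB2, TGFBR2 and SMAD3 narrow without PBS library 3, to estimates of 0.06, 0.03 and 0.02.

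The order of the members by level was steady at both ends. TGFB2 had the highest FPKM of the 8 in all 6 libraries, above 84.7% of all genes tested by its mean, and SMAD2 and SMAD7 were the lowest pair in all 6, above 12.6% and 5.6% of them. TGFBR2 came second in 5 libraries, with TGFB1 above it in PBS library 3 (9.19 against 7.66 FPKM). SMAD3, TGFB1 and TGFBR1 changed places from library to library, and their levels were not separated beyond their spread, at 8.37 ± 0.81, 7.60 ± 0.961 and 5.96 ± 3.59 FPKM after rhPOSTN and 7.18 ± 1.77, 8.55 ± 0.564 and 6.68 ± 2.86 FPKM after PBS (SD, n = 3 each). SMAD4 was below those in every library but rhPOSTN library 2, where TGFBR1 was lower, and it was above SMAD2 in all 6.

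Ratios between members within a library do not depend on how libraries are scaled. TGFB2 over TGFB1 was 4.13, 3.15 and 3.64 in the rhPOSTN libraries, against 3.20, 3.16 and 1.22 in the PBS libraries. The ligands were thus nearly level in PBS library 3, while TGFB2 was at least 3.15 times TGFB1 in the other libraries. The mean log2 ratio was 1.86 ± 0.19 after rhPOSTN and 1.21 ± 0.80 after PBS, a difference of 0.65 (exact permutation test, p = 0.3), and of 0.19 without PBS library 3.

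TGFBR2 over TGFBR1 was 2.66, 4.32 and 1.48 in the rhPOSTN libraries, against 1.65, 1.51 and 2.24 in the PBS libraries. The lowest and the highest ratio were both in the rhPOSTN group, and the difference of mean log2 ratios was 0.54 (exact permutation test, p = 0.4), or 0.70 without PBS library 3. SMAD3 over SMAD2, the receptor-regulated pair, was 5.03, 3.66 and 3.99 in the rhPOSTN libraries, against 4.34, 4.01 and 3.52 in the PBS libraries. SMAD3 mRNA was thus at least 3.52 times that of SMAD2 in every library, with a difference of mean log2 ratios of 0.09 (exact permutation test, p = 0.7), or 0.0058 without PBS library 3.

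SMAD4 over SMAD2 was the steadiest ratio, at 2.42, 2.07 and 1.96 in the rhPOSTN libraries, against 2.13, 1.99 and 2.04 in the PBS libraries. It kept this level in PBS library 3, although both genes were low there, and the difference of mean log2 ratios was 0.06 (exact permutation test, p = 0.8), or 0.05 without PBS library 3. SMAD7 over SMAD3, the inhibitor over the SMAD that induces it, was 0.117, 0.226 and 0.189 in the rhPOSTN libraries, against 0.116, 0.148 and 0.250 in the PBS libraries. It varied about as widely within each group as between them, with a difference of 0.08 (exact permutation test, p = 0.9) that was 0.39 without PBS library 3. Over the 5 ratios the adjusted p was 0.9 for each.

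**Figure D3:**
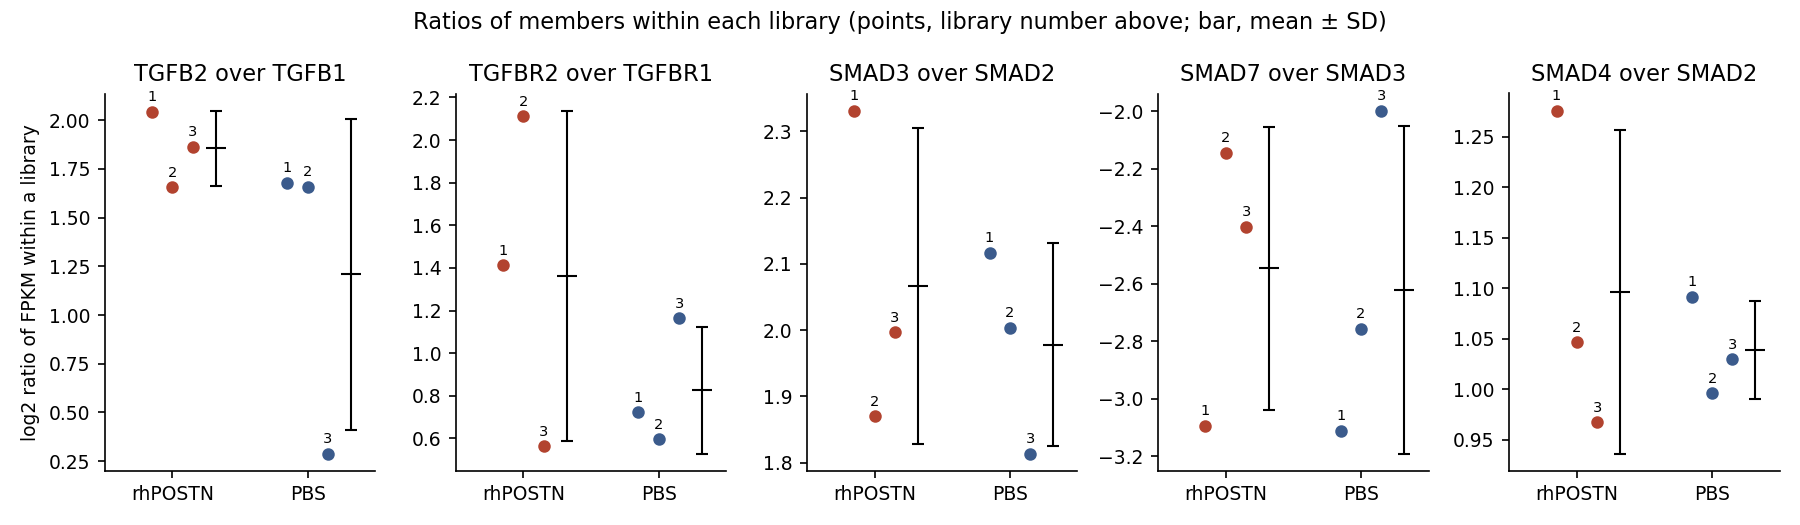
The log2 ratio of the FPKM of the member named first over the other (vertical axes, a scale of its own for each ratio and not from 0) in rhPOSTN libraries (red, left) and PBS libraries (blue, right), with each point a library and its number above it, and the mean ± SD beside the points. For TGFB2 over TGFB1, PBS library 3 sits at 0.29 and the other libraries between 1.66 and 2.05.

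For each member the gene with the most similar course over the 6 libraries was sought, by the smallest maximum gap between log2(FPKM + 1) values centred on their mean. TGFB2 was followed within 0.044 by ARID5B, a transcriptional co-activator, at 7.89, 7.37 and 9.07 FPKM in the rhPOSTN libraries, against 8.12, 7.87 and 2.83 FPKM in the PBS libraries, which is again a profile with 1 low library. The nearest genes to the others were ZBTB10 for TGFB1 (0.048), TMTC3 for TGFBR2 (0.034), RPN2 for SMAD2 (0.014), PPTC7 for SMAD3 (0.032), CTDSP2 for SMAD4 (0.030) and IER5L for SMAD7 (0.026). TGFBR1 had no such close course, as its nearest gene CTNND1 was 0.20 away. CTNND1 had 18.4, 8.51 and 25.2 FPKM in the rhPOSTN libraries, against 25.0, 24.9 and 12.9 FPKM in the PBS libraries, low in the same libraries as TGFBR1. Among the members themselves TGFBR2 and SMAD3 were the closest pair, at 0.15.

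The rest of the pathway was read from 7 lists with 180 different genes, of which 149 were listed and 142 tested. None of the 142 passed the test in either direction (limma), and 6 were higher and 5 lower at an unadjusted p below 0.05. These are 7.75% of the 142, beside 3.21% of all genes tested (2.45% higher, 0.765% lower). However, all 7 lists, with SPHK1, ADAMTS1 and ANGPTL4 in them, were written with earlier results of these data known, so nothing is read from the excess. Without PBS library 3 the counts were 13 higher and 12 lower, beside 7.07% and 2.48% of all genes tested there. With another library left out they were 2 to 6 higher and 3 to 6 lower, beside 1.13% to 2.48% and 0.364% to 0.845%. The median of the 142 was 0.07 on the log2 scale, or 0.0059 without PBS library 3. These counts with libraries left out, here and by list, were added after seeing the data. The groups did not overlap in 18 list genes higher and 7 lower after rhPOSTN, beside 8.94% and 2.76% of all genes tested. The lists are ordered below from the ligand's release to the targets.

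Latency and activation of TGF-beta had 17 genes tested, with a median log2 difference of 0.07, or 0.04 without PBS library 3. ADAMTS1, a secreted protease that can free latent TGF-beta, had 43.3, 40.4 and 40.1 FPKM in the rhPOSTN libraries, against 57.4, 53.7 and 57.9 FPKM in the PBS libraries. All 3 rhPOSTN values lay below all PBS values, a log2 difference of -0.44 with a standard error of 0.10 (limma, adjusted p = 0.951, 0.281 to 1.00 over the alternatives) and of -0.42 without PBS library 3.

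ITGB8 encodes the beta chain that pairs with ITGAV to free latent TGF-beta. It had 2.68, 2.18 and 2.90 FPKM in the rhPOSTN libraries, against 1.69, 1.87 and 0.774 FPKM in the PBS libraries. Here too the groups did not overlap, with a log2 difference of 0.58 and a standard error of 0.21 (limma, adjusted p = 0.951), and 0.36 without PBS library 3. ITGAV itself had a log2 difference of 0.17 that was -0.02 without PBS library 3, and MMP14, a membrane protease that can also free the ligand, had -0.23 and -0.04.

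Co-receptors, adaptors and genes of receptor and SMAD turnover had 24 genes tested and a median log2 difference of -0.01, or -0.08 without PBS library 3. None had an unadjusted p below 0.05, and without PBS library 3 there were 0 higher and 3 lower, USP4, ENG and PPM1A, where 7.07% of all genes tested were higher and 2.48% lower. CAV1, the caveolar coat protein that takes receptors into the degrading route, had 79.7, 87.1 and 96.3 FPKM in the rhPOSTN libraries, against 98.8, 108.8 and 20.4 FPKM in the PBS libraries. Its log2 difference of 0.52 was -0.24 without PBS library 3, so its sign rested on that library. The same held for the adaptor DAB2, at 0.27 and -0.10. PPM1A, a phosphatase of SMAD2 and SMAD3, had -0.47 and -0.72 without PBS library 3, and ITCH, a ubiquitin ligase, had -0.47 and -0.52, but -0.20 without PBS library 1.

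SMAD co-factors and repressors had 20 genes tested and a median log2 difference of 0.14, or 0.01 without PBS library 3. SNAI1, a repressor of epithelial genes that TGF-beta induces, had 3.45, 4.17 and 3.87 FPKM in the rhPOSTN libraries, against 3.01, 2.78 and 2.25 FPKM in the PBS libraries. The groups did not overlap, with a log2 difference of 0.40 and a standard error of 0.13 (limma, adjusted p = 0.951), and 0.31 without PBS library 3. The co-repressor TGIF2 had 0.43, which ranged from 0.21 to 0.77 with single libraries left out (0.26 without PBS library 3). PMEPA1, a membrane protein that sequesters SMADs, had -0.14, which was 0.19 without rhPOSTN library 3, and RUNX2, a DNA-binding partner of SMADs, had -0.12, which was 0.14 without PBS library 3.

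The BMP and activin branch had 21 genes tested and a median log2 difference of 0.09, or 0.04 without PBS library 3. Its genes with an unadjusted p below 0.05 were 3 higher, all ligands, and 0 lower, beside 2.45% and 0.765% of all genes tested. Without PBS library 3 there were 4 higher and 0 lower, beside 7.07% and 2.48%. There was 1 higher without PBS library 1, rhPOSTN library 2 or rhPOSTN library 3, beside 1.13% to 1.95%. Without rhPOSTN library 1 there were 2 higher, beside 1.45%, and without PBS library 2 there were 3, beside 2.48%. BMP4, a ligand of the BMP branch, had 2.64, 3.95 and 3.76 FPKM in the rhPOSTN libraries, against 1.93, 1.99 and 2.02 FPKM in the PBS libraries. The groups did not overlap and PBS library 3 was like its group, with a log2 difference of 0.56 and a standard error of 0.15 (limma, adjusted p = 0.951) and 0.58 without that library. The others were GDF15, a stress-induced member of the family, with a log2 difference of 0.40 (0.50 without PBS library 3), and INHBE, an inhibin chain, with 0.30 (0.32), both named after their values were seen.

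GREM1, which binds BMPs, had 25.1, 3.93 and 27.0 FPKM in the rhPOSTN libraries, against 45.7, 30.5 and 19.2 FPKM in the PBS libraries. Its log2 difference of -1.01 had a standard error of 0.70 (limma, adjusted p = 0.951) and was -0.19 without rhPOSTN library 2, the low one, and -1.32 without PBS library 3. FSTL3, which binds activins, had 22.0, 28.8 and 3.72 FPKM in the rhPOSTN libraries, against 22.7, 18.9 and 46.4 FPKM in the PBS libraries. Its log2 difference of -0.93 had a standard error of 0.72 (limma, adjusted p = 0.951) and was -0.11 without rhPOSTN library 3 and -0.55 without PBS library 3. NBL1, another BMP antagonist, had 0.48, and -0.04 without PBS library 3.

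Genes known from other cells as targets of SMAD3, the transcriptional end of the members' signal, had 40 tested. Their median log2 difference was -0.04, or 0.03 without PBS library 3 (-0.06 to 0.03 over the libraries left out), with 18 above 0 and 22 below. At an unadjusted p below 0.05, 0 were higher and 4 lower, SPHK1, ANGPTL4, TGFBI and COL4A1, beside 2.45% and 0.765% of all genes tested. Without PBS library 3, 3 were higher and 8 lower, again beside 7.07% and 2.48%. Without PBS library 1 or rhPOSTN library 2 there were 0 higher and 2 lower, and without rhPOSTN library 3 there were 1 and 2. Without rhPOSTN library 1 there were 0 and 3, and without PBS library 2 there were 1 and 3. Of all genes tested in these settings, 1.13% to 2.48% were higher and 0.364% to 0.845% lower. This list, with SPHK1 and ANGPTL4 in it, was written with earlier results of these data known.

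SPHK1, the kinase that makes sphingosine 1-phosphate, had 7.06, 7.19 and 4.98 FPKM in the rhPOSTN libraries, against 19.2, 17.7 and 18.2 FPKM in the PBS libraries. The groups lay far apart and PBS library 3 was like its group. The log2 difference was -1.40 with a standard error of 0.15 (limma, adjusted p = 0.152, 0.107 to 0.996 over the alternatives), and -1.41 without PBS library 3. ANGPTL4, a secreted inhibitor of lipoprotein lipase, had 1.60, 1.17 and 1.05 FPKM in the rhPOSTN libraries, against 2.16, 2.25 and 3.26 FPKM in the PBS libraries. Its log2 difference was -0.64 with a standard error of 0.16 (limma, adjusted p = 0.951), and -0.50 without PBS library 3.

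Matrix genes among these targets, described after their values were seen, shared no direction once PBS library 3 was left out. TGFBI, a TGF-beta-induced matrix protein related to periostin, had 17.8, 17.8 and 19.4 FPKM in the rhPOSTN libraries, against 22.6, 22.4 and 21.4 FPKM in the PBS libraries, a log2 difference of -0.26, and -0.28 without PBS library 3. COL4A1, a chain of basement membrane collagen, had a log2 difference of -0.44, and -0.28 without that library. Other collagens differed in sign between all 6 libraries and the 5 besides PBS library 3, at -0.14 and 0.51 for COL7A1, -0.37 and 0.18 for COL1A1 and -0.10 and 0.13 for COL5A1. Fibronectin (FN1) had -0.04, and -0.21 without that library.

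Not all classical targets had lower values. CTGF (CCN2), a matricellular protein, had 44.3, 48.5 and 47.2 FPKM in the rhPOSTN libraries, against 38.9, 46.5 and 32.4 FPKM in the PBS libraries, a log2 difference of 0.26 that was 0.13 without PBS library 3. SKIL, a feedback repressor of SMADs, had 0.28, and 0.08 without that library.

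Targets of the BMP-regulated SMAD1 and SMAD5 had 7 genes tested and a median log2 difference of 0.23, or 0.14 without PBS library 3. ID3, an inhibitor of basic helix-loop-helix factors, had 13.3, 17.1 and 13.2 FPKM in the rhPOSTN libraries, against 10.2, 10.2 and 11.1 FPKM in the PBS libraries. The groups did not overlap, with a log2 difference of 0.42 and a standard error of 0.13 (limma, adjusted p = 0.951), and 0.46 without PBS library 3. HES1, a repressor shared with the Notch pathway, had 2.78, 3.09 and 2.73 FPKM in the rhPOSTN libraries, against 1.79, 1.68 and 2.76 FPKM in the PBS libraries, so PBS library 3 lay with the rhPOSTN libraries. Its log2 difference was 0.34, and 0.50 without PBS library 3. NOG, a BMP antagonist, had -0.17, and -0.06 without PBS library 3, and HEY1, a repressor, had -0.02, which was 0.05 without it. Genes of this list with an unadjusted p below 0.05 were 1 higher with all libraries, beside 2.45% of all genes tested. Without PBS library 3 they were 3 higher, beside 7.07%. They were 0 without PBS library 1, PBS library 2 or rhPOSTN library 2, beside 1.14% to 2.48% higher. Without rhPOSTN library 1 or rhPOSTN library 3 there was 1 higher, beside 1.45% and 1.13%.

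Kinases of the SMAD-independent branch had 21 genes tested, with a median log2 difference of 0.06, or -0.05 without PBS library 3, where all genes tested had 0.06 and 0.03, and none had an unadjusted p below 0.05. MAPK9 (JNK2) had 12.6, 13.1 and 12.6 FPKM in the rhPOSTN libraries, against 11.2, 11.5 and 4.91 FPKM in the PBS libraries, a log2 difference of 0.51 that was 0.16 without PBS library 3. MAPK14, the p38 kinase, had -0.42, with a single high value of 15.9 FPKM in PBS library 2, and -0.05 without that library. DAXX, an adaptor of the JNK route, had -0.29, and -0.05 without PBS library 3.

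**Figure D4:**
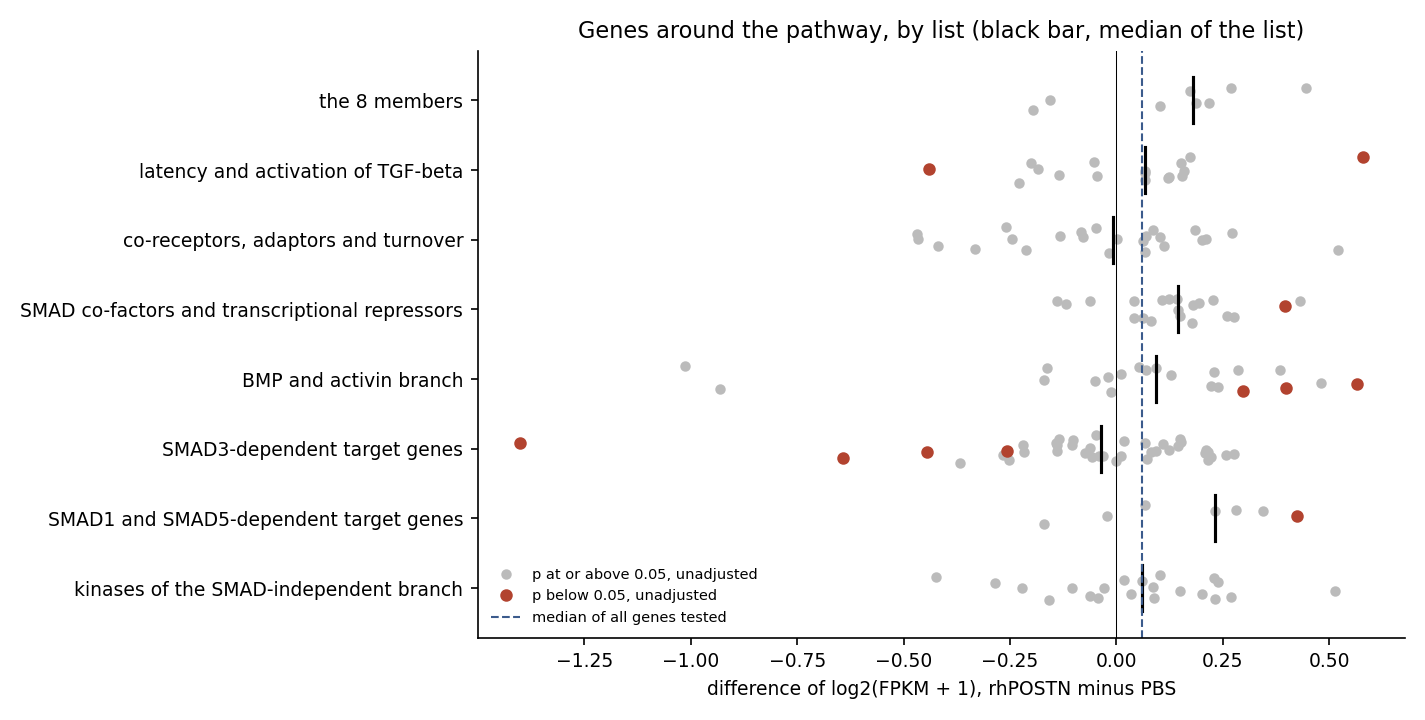
Difference of log2(FPKM + 1), rhPOSTN minus PBS (horizontal axis), of each gene tested (points, spread vertically within a list only to be seen) for the 8 members and 7 lists of pathway genes. Red points have an unadjusted limma p below 0.05, black bars are list medians, and the dashed line is the median of all genes tested, 0.06, against -0.04 for targets of SMAD3.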

How the data were processed

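Poly(A) RNA of HMC3 cells was built into strand-marking KAPA libraries. Removal of rRNA is named in the labels as another option. The authors trimmed adapters with Cutadapt, aligned with HISAT2 and estimated abundance per gene with StringTie and Ballgown. The deposited values are FPKM, 1 per gene and library. FPKM is named in the PBS table and the methods, while the rhPOSTN table has no unit in its header. The submitters' processing notes name GRCh37. The sources used here do not give tool versions.

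From these values log2(FPKM + 1) was computed, which understates the change of low genes. The filter kept a gene whose mean reached 1 FPKM in either group, and 10982 of 11943 genes were fitted with limma 3.58.1 in R 4.3.3 (lmFit, eBayes with trend, no covariate). The fit was tested on simulated data. Exact two-sided permutation tests used Python 3.11.15. The number of per-sample columns not used was 0. No counting interval is given, since the depth is unknown.

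The members and the lists were chosen with earlier results of these data known. Named genes were the 8 members, of each list the 2 genes with the largest positive and the 2 with the largest negative difference and any that passed, the gene most like each member, and markers of the labelled cell type. Some genes that this rule takes are not reported here. Of 190 list entries, 2 genes matched by an older symbol. Alternatives were pseudocounts of 0.1 and 5, filtering at 5 FPKM or not at all, other scalings of the libraries, limma without trend or with robust settings, a block for the library number, and every library dropped in turn.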

Additional observations from a re-analysis of the deposited data

How the results depend on the processing

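None of the 8 members and none of the pathway genes passed the threshold under any alternative run. The count of genes called higher over all genes was 2, and it was 1 at a pseudocount of 0.1, 1 with a filter at 5 FPKM and 1 with the library number as a replicate block. Leaving out each library in turn gave 1 to 7 genes higher and 0 to 4 lower, the most without PBS library 3. Leaving out a library gave TGFBR1 differences of -0.58 to 0.19, and turned its sign without rhPOSTN library 2 (0.19) and without PBS library 2 (0.02). Without PBS library 3 the sign turned for ITGAV (-0.016, range over libraries left out to 0.28), DAB2 (-0.098 to 0.47), CAV1 (-0.24 to 0.94), RUNX2 (0.14 to -0.31), NBL1 (-0.039 to 0.76) and HEY1 (0.050 to -0.10), without rhPOSTN library 3 for PMEPA1 (0.19 to -0.37), and without rhPOSTN library 2 for HEY1 (0.0038). The differences of the other members ranged over libraries left out from -0.23 to -0.07 for TGFB1, 0.06 to 0.65 for TGFB2, 0.03 to 0.39 for TGFBR2, 0.01 to 0.17 for SMAD2, 0.02 to 0.32 for SMAD3, 0.06 to 0.24 for SMAD4 and 0.10 to 0.30 for SMAD7. Of the ratios, that of SMAD3 over SMAD2 ranged from -0.045 to 0.19, SMAD4 over SMAD2 from -0.032 to 0.12, SMAD7 over SMAD3 from -0.17 to 0.39, TGFB2 over TGFB1 from 0.19 to 0.88 and TGFBR2 over TGFBR1 from 0.16 to 0.94. With a pseudocount of 1, SMAD7 over SMAD3 was -0.032. The cause of these turns was not tested. Deviations of same-numbered libraries from their group means correlated at -0.04, -0.19 and -0.42. These values cannot decide whether the library numbers pair the samples, since the 3 deviations of a group sum to 0. The replicate block changed no call of a member. Of the other alternatives, 392 values kept their direction and their side of the threshold. Scaling by the median of ratios moved the median of all genes to -0.01. The depth is unknown, so what it limits cannot be given.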
